A study of Mus musculus with 16 samples.

Results

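The accessible chromatin around 4 genes for T cell ligands was described: Cd80 and Cd86, which encode costimulatory ligands, and Cd274 and Pdcd1lg2, which encode the checkpoint ligands PD-L1 and PD-L2. Members were the regions that lay wholly within 3 windows of the mm9 mouse genome: chr16:38360000-38600000 around Cd80, chr16:36500000-36760000 around Cd86, and chr19:29380000-29600000 around the neighbouring Cd274 and Pdcd1lg2. The windows held 60, 51 and 66 regions, 177 of the 250313 regions measured, and each region was 500 bp long. No region crossed a window edge.

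The study measured chromatin accessibility by ATAC-seq, an assay of where the Tn5 transposase can reach the DNA. The cells were mTECs, the epithelial cells of the thymic medulla, from C57BL/6 mice aged 4 weeks. Cells without DAPI or CD45 staining that were positive for Epcam and for UEA binding and low for Ly51 were split by surface MHC class II into mTEChi and mTEClo, and 60000 cells went into each reaction. Each sort was taken from Aire+/+, Aire-/-, Brg1+/+ and Brg1-/- mice, which gave 8 groups of 2 libraries. The Brg1+/+ libraries carry the label NOCRE, so the presence of Cre itself may separate them from the Brg1-/- libraries. Neither the Cre line nor the number of mice behind a library is stated. P-values therefore measure the spread between libraries, which may be technical.

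CD80 and CD86 bind CD28, which costimulates T cells, and CTLA-4, which inhibits them. PD-L1 and PD-L2 bind the inhibitory receptor PD-1. In the thymic medulla, CD80 and CD86 support the development of regulatory T cells, and high CD80 is a common surface marker of mature mTECs. Aire is the factor that drives promiscuous expression of tissue antigens in mature mTECs, and Brg1 is an ATPase of the BAF chromatin remodelling complexes.

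The windows also cover other genes. In the gene order of the RefSeq annotation of GRCm38.p6, Cd80 stands between Adprh and Timmdc1, Cd86 between Casr and Ildr1, and Cd274 and Pdcd1lg2 between Plgrkt and Ric1. No annotation of mm9 was used, so a region was not assigned to a promoter, exon or intron or to any of these genes, and the sorted cell type was not checked against marker genes. Below, a region is named by its coordinates and then by the distance of its start from the lower edge of its window.

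Promoter sequence from RefSeq (GRCm38.p6, + strand) was at hand for 3 of the 4 genes and is shown because the windows were drawn around these genes; coordinates of that build cannot be set against the mm9 regions. Each sequence is the 250 bases before the annotated start, at chr16:38458683-38458932 for Cd80, chr19:29367188-29367437 for Cd274 and chr19:29410669-29410918 for Pdcd1lg2. Capitals mark a motif match.
Cd80: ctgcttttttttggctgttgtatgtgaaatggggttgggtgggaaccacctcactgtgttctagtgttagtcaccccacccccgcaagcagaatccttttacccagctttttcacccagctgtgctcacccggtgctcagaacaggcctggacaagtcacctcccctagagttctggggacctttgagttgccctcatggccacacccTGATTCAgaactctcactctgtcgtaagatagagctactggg
Cd274: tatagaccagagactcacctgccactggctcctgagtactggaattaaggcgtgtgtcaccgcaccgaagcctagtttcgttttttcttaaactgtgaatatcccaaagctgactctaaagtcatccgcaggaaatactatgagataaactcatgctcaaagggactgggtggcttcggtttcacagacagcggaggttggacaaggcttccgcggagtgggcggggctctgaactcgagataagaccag
Pdcd1lg2: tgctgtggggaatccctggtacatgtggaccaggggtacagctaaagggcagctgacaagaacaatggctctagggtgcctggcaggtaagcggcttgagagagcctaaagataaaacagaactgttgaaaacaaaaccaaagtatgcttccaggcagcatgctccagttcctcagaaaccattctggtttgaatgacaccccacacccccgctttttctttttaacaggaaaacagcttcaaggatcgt
Both strands were searched for 4 motifs: NF-kB (GGGNNNTTCC, in 4.65% of 32851 promoters of this length), the interferon response element ISRE (GAAANNGAAA, 2.98%), the STAT site GAS (TTCNNNGAA, 7.02%) and AP-1 (TGANTCA, 6.75%). The letters searched for AP-1 stood in the Cd80 promoter as TGATTCA, from -42 to -36 relative to the start. The N in them admits any base, so this match was not shown to be an AP-1 site. The letters of the other motifs, exactly as written here, were not in these stretches of sequence. Variants of these motifs were not searched for, so a site in other letters may be present. This says nothing of the factors. GC content was 52.8% for Cd80, 50.4% for Cd274 and 48.4% for Pdcd1lg2.

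All 3 windows were densely accessible. They held 25.0, 19.6 and 30.0 regions per 100 kb for Cd80, Cd86 and Cd274-Pdcd1lg2, against 9.72 over the covered genome. The median region had a mean signal over the 16 libraries of 16.2, 16.7 and 17.8, against 14.2 for all regions. Above the 90th percentile of all regions by mean signal, 52.5, stood 27 of the 177 members: 11 in the Cd80 window, 5 in the Cd86 window and 11 in the Cd274-Pdcd1lg2 window. Signal here is the value normalized by the authors; the sequencing depth behind it is unknown, so no counting interval is given. The median signal of a library over all regions ranged from 8.51 to 19.8. The 2 libraries of a group correlated across regions at r = 0.768 to 0.816 in mTEClo, but at 0.540 in Aire+/+ mTEChi, 0.596 in Brg1-/- mTEChi, 0.683 in Brg1+/+ mTEChi and 0.770 in Aire-/- mTEChi. Within the windows these values were 0.768 to 0.849 in mTEClo and 0.580, 0.593, 0.713 and 0.776 in the mTEChi groups.

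**Figure D1:**
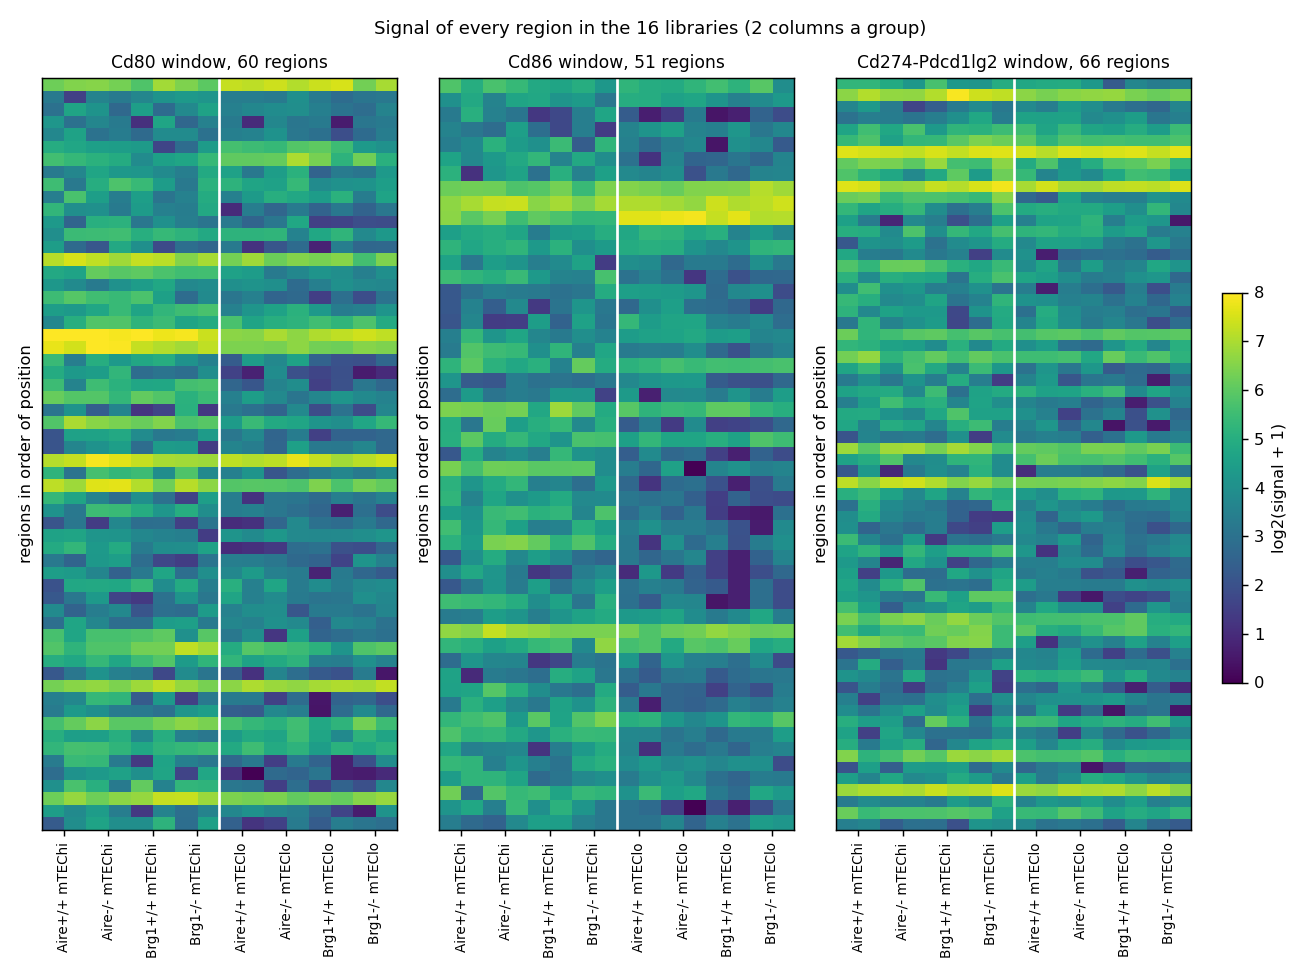
log2(signal + 1) of every member region (rows, by position in each window) in the 16 libraries (columns, 2 a group; mTEClo and mTEChi groups are separated by a white line). Rows of high signal in all libraries stand among rows that are bright mainly in mTEChi, most visibly in the Cd80 window.

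The first comparison was between the sorts, mTEChi against mTEClo, averaged over the 4 genotypes. Regions were tested with limma on log2(signal + 1) across 225281 regions, with Benjamini-Hochberg adjustment, and called at an adjusted p under 0.05; 173 members (58, 51 and 64) were tested, and 4 fell under the filter on low signal. Of these 173, 66 were called higher and 8 lower in mTEChi, where 27.1% of all tested regions were called higher and 10.6% lower. The Cd80 window had 29 higher and 3 lower calls (55.2% called), the Cd86 window 20 and 3 (45.1%), and the Cd274-Pdcd1lg2 window 17 and 2 (29.7%), against 37.7% of all tested regions. The median log2 fold change was 0.73 in the Cd80 window, 0.62 in the Cd86 window and 0.38 in the Cd274-Pdcd1lg2 window, against 0.33 over all tested regions. So the Cd80 share of calls lay above the background and the Cd274-Pdcd1lg2 share below it, with most calls higher in mTEChi in each window. Without any 1 library, the calls numbered 65 to 73 in all; without the second Aire+/+ mTEChi library, from the group whose libraries were least alike, they numbered 28, 23 and 21 in the 3 windows.

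The general shift of 0.33 depended on the scaling of the libraries: it was -0.02 after quantile normalization and -0.10 after each library was re-centred on its median. The split of member calls was then 46 higher and 14 lower, or 41 and 21, against 66 and 8. Of the tested members 34.7% and 35.8% were then called, against 34% and 34.7% of all tested regions. In the main fit these shares were 42.8% and 37.7%. Higher calls made up 76.7% and 66.1% of the member calls, against 48.4% and 41.8% of the calls over all tested regions. After re-centring, the windows had 16 higher and 7 lower (Cd80), 16 and 7 (Cd86) and 9 and 7 (Cd274-Pdcd1lg2), and their medians were 0.30, 0.19 and -0.05. After quantile normalization the window medians were 0.32, 0.30 and 0.11. The median of each window lay above that of all regions under each scaling. Re-centring moved the sort difference of every region by the same amount, so it could not change that order. The general shift itself varied with strength. Over all tested regions the median was 0.40 at a mean signal under 20 and 0.36 at 20 to 50. It was 0.10 at 50 to 100 and -0.02 at 100 or more. Re-centring thus moved the strong regions by a shift that their class did not show. Which scaling is right was not tested. A rise in a sorted population can come from more cells with an open region or from more opening per cell, and these cannot be told apart in bulk libraries.

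**Figure D2:**
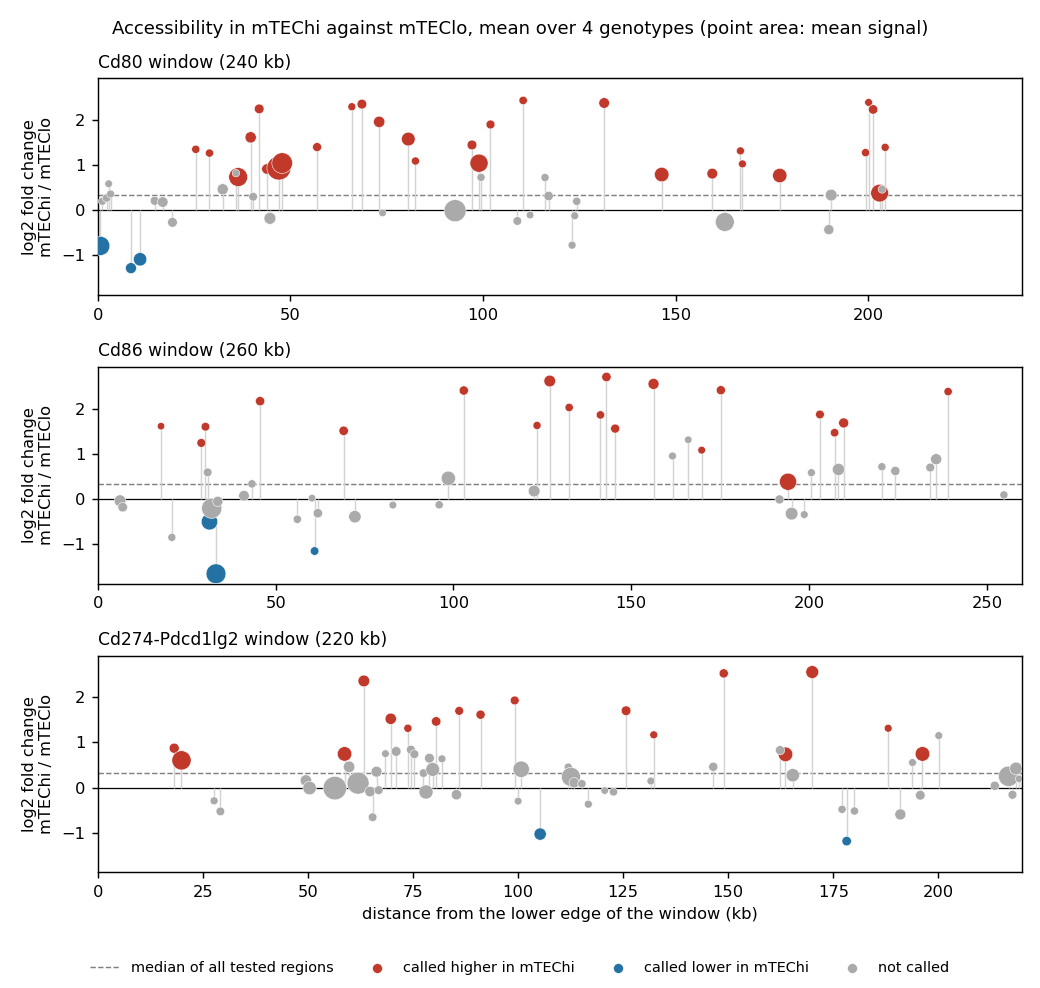
log2 fold change of mTEChi over mTEClo (mean over 4 genotypes) of every region against its distance in kb from the lower edge of its window; point area follows the mean signal. Calls higher in mTEChi run through each window, the 3 Cd80 calls lower in mTEChi lie at its lower edge, and the 2 strongest regions of the Cd274-Pdcd1lg2 window sit near 0.

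The level of the whole window was also set against each library's own median over all tested regions. This takes out only a shift that strong and weak regions of the library share. For Cd80, the median region of the window stood 0.38 and 0.26 above that library median (log2) in the Aire+/+ mTEChi libraries, 0.62 and 0.74 in Aire-/- mTEChi, 0.58 and 0.53 in Brg1+/+ mTEChi, and 0.01 and 0.10 in Brg1-/- mTEChi. The 8 mTEClo libraries ranged from -0.32 to 0.09. The 6 mTEChi libraries other than Brg1-/- thus lay above all mTEClo libraries, and the 2 Brg1-/- mTEChi libraries lay within or just above the mTEClo range.

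For Cd86, the same difference was 0.45 and 0.32 in Aire+/+ mTEChi, 0.58 and 0.56 in Aire-/- mTEChi, 0.13 and 0.35 in Brg1+/+ mTEChi, and 0.03 and 0.21 in Brg1-/- mTEChi. It was -0.36 to 0.00 in mTEClo, so the sorts did not overlap. For Cd274-Pdcd1lg2 it was above 0 in all 16 libraries, 0.25 to 0.60 in mTEChi and 0.11 to 0.48 in mTEClo, and the sorts overlapped. These levels were not tested.

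**Figure D3:**
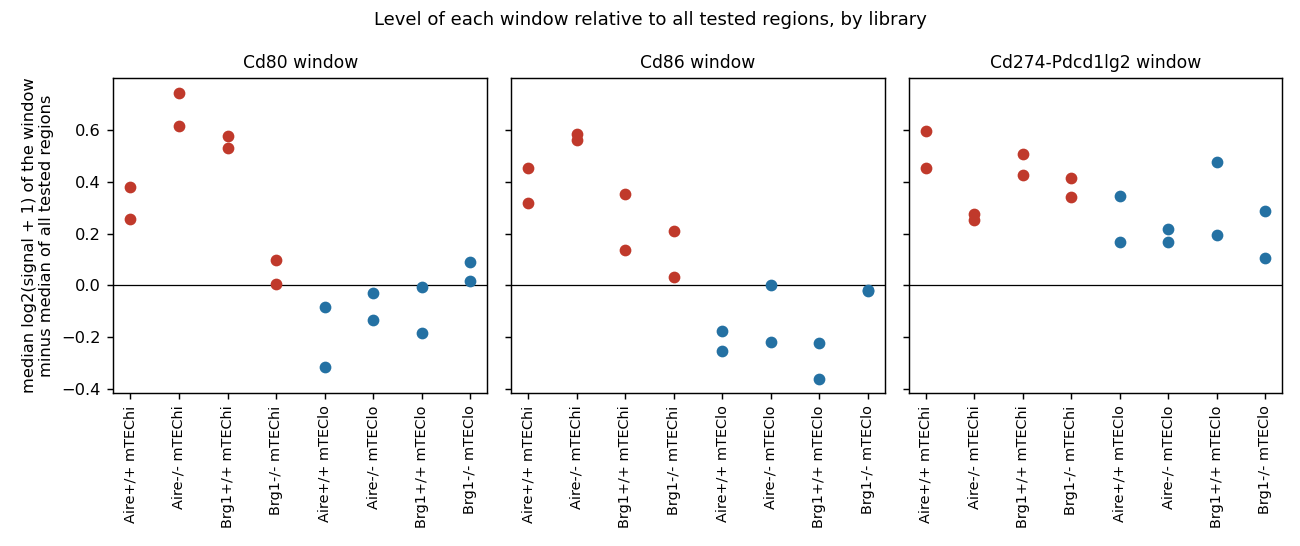
Median log2(signal + 1) of each window minus the median of all tested regions, per library (points) in the 8 groups. The Cd86 sorts do not overlap, the Brg1-/- mTEChi libraries (0.01 and 0.10) sit near the mTEClo range for Cd80, and Cd274-Pdcd1lg2 is above 0 in every library.

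In the Cd80 window, the most accessible region was chr16:38406736-38407235 (46.7 kb), with a mean signal of 184. Its signal was 253 and 262 in Aire+/+ mTEChi, 301 and 238 in Aire-/- mTEChi, 253 and 220.3 in Brg1+/+ mTEChi, and 238 and 163 in Brg1-/- mTEChi. In mTEClo it was 96.9 and 93.5, 124 and 99.6, 132 and 149, and 171 and 151 in the same order of genotypes. All 6 mTEChi libraries of the first 3 genotypes lay above all mTEClo libraries, while the Brg1-/- sorts overlapped. The log2 fold change between the sorts was 0.93 (SE 0.11, adjusted p = 4.07e-08, limma); by genotype it was 1.43, 1.26, 0.75 and 0.29, of which the Brg1-/- value was not called (adjusted p = 0.42). Whether it differed between Brg1-/- and Brg1+/+ was tested as an interaction and did not pass (-0.46, SE 0.31, adjusted p = 0.80).

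Its neighbour chr16:38407590-38408089 (47.6 kb) was also among the strongest regions, with a mean signal of 134. In mTEChi the lowest, median and highest signals were 119, 164 and 274, and in mTEClo 74.8, 84.6 and 98.0, so the sorts did not overlap. The fold change was 1.04 on the log2 scale (SE 0.12, adjusted p = 4.23e-08, limma). These 2 regions opened a run of 6 neighbouring regions called higher in mTEChi, from 38406736 to 38433272, a span of 26.5 kb. The frequency of such runs over all tested regions was not counted.

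Not all strong regions of this window differed. At chr16:38452479-38452978 (92.5 kb; mean signal 154), mTEChi ranged from 114 to 237 with a median of 146, and mTEClo from 117 to 207 with a median of 148. The sorts overlapped fully, and the difference was -0.01 (SE 0.12, adjusted p = 0.95). After re-centring it was -0.44 and called lower, through the shift that re-centring gave to every region alike. The window thus held strong regions that differed between the sorts and a strong region that did not.

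The largest rises were at weaker regions. At chr16:38470147-38470646 (110 kb), signal was 28.6 and 38.1, 18.9 and 28.4, 9.07 and 14.3, and 14.6 and 23.6 in mTEChi of Aire+/+, Aire-/-, Brg1+/+ and Brg1-/- mice. In mTEClo it was 0.96 and 1.17, 1.54 and 6.26, 6.99 and 2.92, and 2.68 and 5.24. Every mTEChi library lay above every mTEClo library, and the rise was 2.43 (SE 0.40, adjusted p = 1.25e-05, limma). The next by size were chr16:38559820-38560319 (200 kb; 2.39, SE 0.54), chr16:38491171-38491670 (131 kb; 2.37, SE 0.38) and chr16:38428290-38428789 (68.3 kb; 2.35, SE 0.34), and in each the sorts overlapped in 1 or more libraries.

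A further 3 regions without overlap were picked out after their values were seen: chr16:38399412-38399911 (39.4 kb), chr16:38432773-38433272 (72.8 kb) and chr16:38440331-38440830 (80.3 kb). Their log2 rises were 1.61, 1.95 and 1.57 (SE 0.26, 0.27 and 0.23). At the 72.8 kb region, mTEChi signal ran from 33.8 to 68.9 and mTEClo signal from 7.70 to 20.8. In all, 5 Cd80 regions, 4 Cd86 regions and 4 Cd274-Pdcd1lg2 regions had every mTEChi library above every mTEClo library, 7.51% of the tested members against 5.15% of all tested regions.

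The 3 Cd80 regions that fell in mTEChi all lay near the lower edge of the window. At chr16:38360388-38360887 (0.39 kb; mean signal 113), mTEChi had 54.4, 83.7 and 118 as its lowest, median and highest signals and mTEClo had 77.5, 152 and 182. The sorts overlapped through Brg1-/- mTEClo, whose libraries were 77.5 and 123, and the change was -0.79 (SE 0.15, adjusted p = 0.000122, limma). The others were chr16:38368348-38368847 (8.35 kb; -1.28, SE 0.33) and chr16:38370714-38371213 (10.7 kb; -1.09, SE 0.24).

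In the Cd86 window, the clearest single difference was a fall. At chr16:36532974-36533473 (33.0 kb; mean signal 122), mTEChi signal was 97.1 and 61.3 in Aire+/+, 81.1 and 45.1 in Aire-/-, 65.8 and 52.7 in Brg1+/+, and 37.1 and 38.4 in Brg1-/-. Signal in mTEClo was 199 and 201, 218 and 233, 155 and 205, and 136 and 136. The lowest mTEClo library lay above the highest mTEChi library. The change was -1.66 (SE 0.15, adjusted p = 2.21e-10, limma), the smallest adjusted p of any member. By genotype it was -1.36, -1.88, -1.58 and -1.82, each called. It was the only member called in the same direction in all 4 genotypes, 0.578% of the tested members. Of all tested regions 0.594% were lower in all 4, and the share higher in all 4 was not counted. The 33.0 kb region was also the only member with every mTEChi library below every mTEClo library (again 0.578%, against 1.93% of all tested regions).

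The region just below it, chr16:36531774-36532273 (31.8 kb), was the strongest of the window, with a mean signal of 128. There mTEChi signals ran from 82.3 over a median of 119 to 165, and mTEClo signals from 103 over 132 to 170. The sorts overlapped and the difference was not called (-0.21, SE 0.13, adjusted p = 0.19), but it was -0.64 and called after re-centring. Another region of this cluster, chr16:36531142-36531641 (31.1 kb), fell by 0.51 (SE 0.17, adjusted p = 0.0151), a call that was lost without the first Brg1-/- mTEChi library. A weak fall at chr16:36560698-36561197 (60.7 kb; -1.16, SE 0.40, adjusted p = 0.0204) was lost without Aire+/+ mTEChi 1, Aire+/+ mTEClo 1, Brg1+/+ mTEChi 2, Brg1-/- mTEChi 2 or Brg1-/- mTEClo 1 (-1.04 to -0.91 there).

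Rises ran through the Cd86 window, with a stretch in its middle where 7 neighbouring regions were called higher over 33.3 kb, from 36623246 to 36656505. How often such runs occur outside the windows was not counted. At chr16:36642763-36643262 (143 kb), signal in mTEChi was 20.8 and 15.9, 41.5 and 45.4, 33.8 and 37.1, and 11.3 and 53.7 in Aire+/+, Aire-/-, Brg1+/+ and Brg1-/- mice. In mTEClo it was 6.15 and 10.1, 4.70 and 8.16, 1.74 and 0.59, and 0.47 and 6.74. The sorts did not overlap, although the 2 Brg1-/- mTEChi libraries differed several-fold, and the rise was 2.70 (SE 0.40, adjusted p = 2.67e-06, limma), the largest among the called members.

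Within the same run, chr16:36656006-36656505 (156 kb) rose by 2.55 (SE 0.35) without overlap, with 20.7, 44.5 and 90.1 as the lowest, median and highest signals in mTEChi and 1.29, 9.02 and 15.5 in mTEClo. The region chr16:36626820-36627319 (127 kb) rose by 2.61 (SE 0.42) with overlap, since 1 Brg1-/- mTEChi library was at 14.0 and 1 Aire-/- mTEClo library at 22.7. Outside the run, chr16:36674946-36675445 (175 kb) rose by 2.41 (SE 0.37). Seen after the fact, chr16:36641075-36641574 (141 kb; 1.86, SE 0.38) and chr16:36545371-36545870 (45.4 kb; 2.16, SE 0.38) also had no overlap. The next strongest region, chr16:36693833-36694332 (194 kb; mean signal 89.3), had a small difference of 0.38 (SE 0.15, adjusted p = 0.0417) that was not called after quantile normalization or without any 1 of 11 libraries, and became -0.05 after re-centring.

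The strongest regions of the Cd274-Pdcd1lg2 window were nearly flat. At chr19:29436143-29436642 (56.1 kb; mean signal 176), signal was 195 and 177, 165 and 151, 180.2 and 152, and 189 and 196 in mTEChi of the 4 genotypes in the order above. The mTEClo libraries were at 178 and 139, 190.2 and 172, 181 and 196, and 158 and 205. All 16 values lay between 139 and 205, and the sorts overlapped fully. The difference was -0.01 (SE 0.10, adjusted p = 0.94), though re-centring turned it into a called fall of -0.44.

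The other two of the 3 strongest regions of the window were not called either. At chr19:29441664-29442163 (61.7 kb; mean signal 153) the difference between the sorts was 0.10 (SE 0.11), and at chr19:29596454-29596953 (216 kb; mean signal 129) it was 0.25 (SE 0.13). Both turned negative after re-centring, at -0.33 (adjusted p = 0.048, just past the threshold) and -0.18 (not called).

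The larger rises in this window were at weaker regions. At chr19:29443039-29443538 (63.0 kb), signal was 70.9 and 78.2 in Aire+/+ mTEChi, 40.7 and 53.9 in Aire-/- mTEChi, 52.4 and 47.9 in Brg1+/+ mTEChi, and 39.7 and 92.5 in Brg1-/- mTEChi. Those of mTEClo were at 5.45 and 3.88, 23.8 and 11.0, 9.76 and 9.86, and 16.2 and 13.2. No library of one sort reached the other, and the rise was 2.36 (SE 0.28, adjusted p = 6.16e-08, limma). The region is a near neighbour of the flat one at 61.7 kb, so regions of the same neighbourhood differed in their behaviour between the sorts.

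The largest rise of the window was at chr19:29549735-29550234 (170 kb), with 43.1, 76.5 and 117 as the lowest, median and highest signals in mTEChi and 1.24, 13.0 and 23.0 in mTEClo. The sorts did not overlap, and the difference was 2.56 (SE 0.34, adjusted p = 4.80e-07, limma). The regions chr19:29528674-29529173 (149 kb; 2.53, SE 0.37) and chr19:29478942-29479441 (98.9 kb; 1.93, SE 0.43) followed, both with overlap. Picked out later for their lack of overlap were chr19:29449443-29449942 (69.4 kb; 1.52, SE 0.28) and chr19:29505434-29505933 (125 kb; 1.70, SE 0.37). The 2 falls were chr19:29557929-29558428 (178 kb; -1.19, SE 0.36) and chr19:29484990-29485489 (105 kb; -1.03, SE 0.29), and in both the sorts overlapped.

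**Figure D4:**
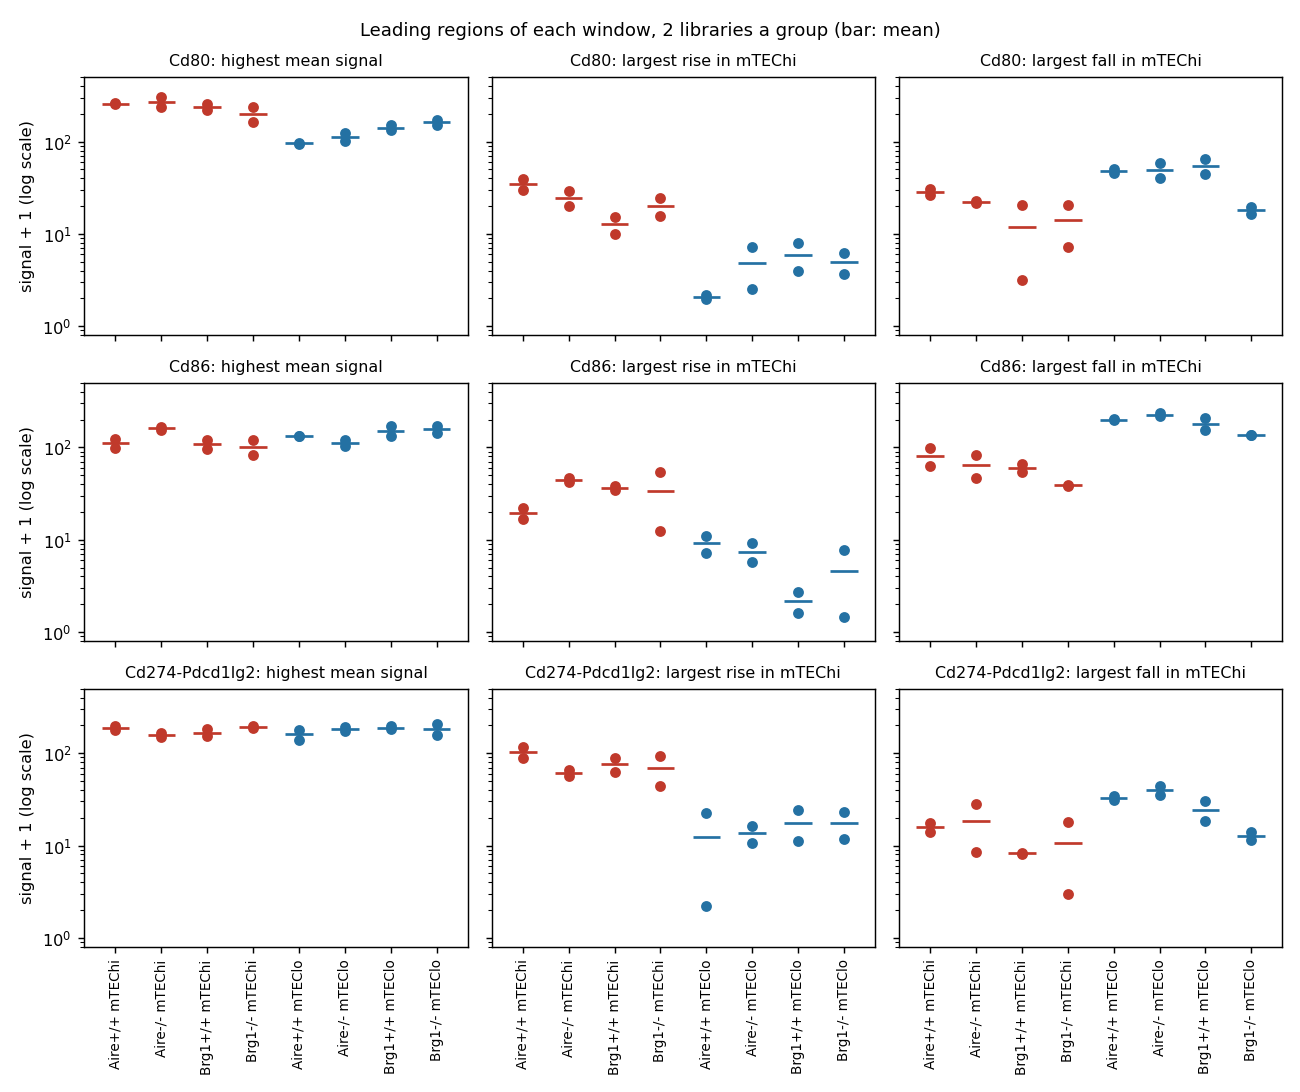
Signal + 1 on a log axis in the 2 libraries of each of the 8 groups, with a bar at the group mean, for leading regions of each window. The strong Cd80 region (mean 184) is higher in mTEChi, the Cd86 region at 33.0 kb is lower in every mTEChi library, and the strongest Cd274-Pdcd1lg2 region (mean 176) is level.

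Strong and weak members were both among the calls. Of the 14 members with a mean signal of 100 or more, 5 were called higher and 2 lower (35.7% and 14.3%), against 20.9% and 24.3% of all regions of that strength. Of the 100 tested members with a mean under 20, 37 were called higher and 2 lower, against 23.7% and 5.25% of all regions.

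Taken one genotype at a time, with 2 libraries a sort, fewer regions passed. In Aire+/+ mice 17 members were called higher and 1 lower in mTEChi, 10.4% in all, against 8.79% of all tested regions (5.14% higher, 3.65% lower). In Aire-/- mice these were 25 and 3, or 16.2%, against 11.4% (7.15% and 4.22%). In Brg1+/+ mice 32 were higher and 4 lower, or 20.8%, against 13.0% (9.21% and 3.75%). In Brg1-/- mice 9 were higher and 2 lower, or 6.36%, against 8.11% (6.61% and 1.5%). The Brg1-/- split turned to 1 higher and 4 lower after quantile normalization and to 1 and 11 after re-centring. This turn was not particular to the members. Of all regions called in Brg1-/- mice, 81.5% were higher in the main fit, 35.4% after quantile normalization and 19.5% after re-centring. In the other genotypes higher calls outnumbered lower ones among the members under both scalings.

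By window, the Cd80 calls were 10 higher and 0 lower in Aire+/+, 12 and 1 in Aire-/-, 13 and 3 in Brg1+/+, and 3 and 0 in Brg1-/- mice. The Cd86 calls were 4 and 1, 7 and 2, 9 and 1, and 2 and 2, and the Cd274-Pdcd1lg2 calls 3 and 0, 6 and 0, 10 and 0, and 4 and 0. No member was called higher in all 4 genotypes. How many of all tested regions were higher in all 4 was not counted, so this cannot be read as a trait of these windows. Called higher in 3 genotypes were 12 members: 7 Cd80, 2 Cd86 and 3 Cd274-Pdcd1lg2 regions. They made up 6.94% of the tested members, against 3.25% of all tested regions in 3 or more. The median log2 fold change of the Cd80 window was 0.34, 0.60, 0.93 and 0.61 in the order of genotypes above, of the Cd86 window 0.47, 0.89, 0.79 and 0.74, and of the Cd274-Pdcd1lg2 window 0.28, 0.20, 0.21 and 0.59. The medians over all tested regions were 0.16, 0.10, 0.42 and 0.62, so in Brg1-/- mice the Cd86 median stood above that of all tested regions and the Cd80 and Cd274-Pdcd1lg2 medians just below it. Leaving out 1 library, which left 1 in its group, cut the counts of member calls by over 1.5 times in most cases. The share of all tested regions called fell too in each of these fits, so the drop was not particular to the members.

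The second comparison was between knockout and wild type in each sort. No member was called in any of these 4 contrasts by limma. In mTEChi without Aire, 0.0209% of all tested regions were called, in mTEClo without Aire 0.0%, in mTEChi without Brg1 0.0257% and in mTEClo without Brg1 0.000444%, so the absence of calls among the members was near the background. At an unadjusted p under 0.05 the members numbered 12 for Aire in mTEChi, 5 for Aire in mTEClo, 12 for Brg1 in mTEChi and 12 for Brg1 in mTEClo. These are 6.94%, 2.89%, 6.94% and 6.94% of the 173 tested, against 10.2%, 2.50%, 10.7% and 6.15% of all tested regions. Leaving out the first Aire+/+ mTEChi library gave 1 call for Aire in mTEChi, at chr16:36735479-36735978 (235 kb) in the Cd86 window, where the remaining Aire+/+ mTEChi library was at 5.62 and the one left out at 76.8.

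**Figure D5:**
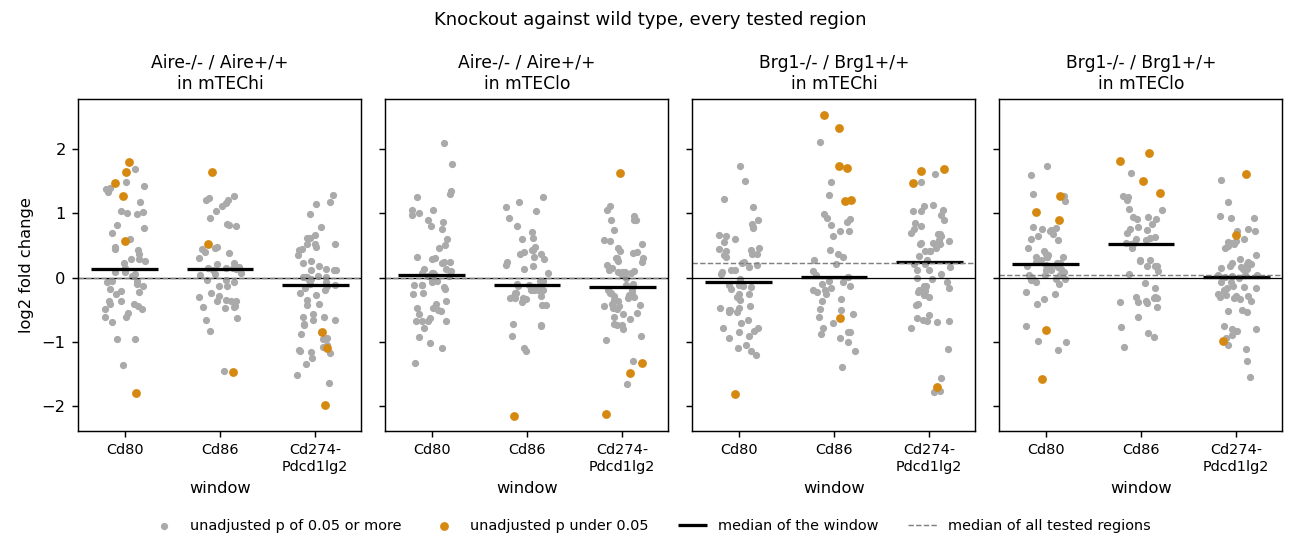
log2 fold change of knockout over wild type for every tested member, by window, for Aire and Brg1 in each sort; the dashed line is the median of all tested regions. Members lie on both sides of 0 in every panel and none was called. For Brg1 in mTEClo more lie above 0 (110 of 173).

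The smallest adjusted p of a member in these contrasts was at the strong Cd274-Pdcd1lg2 region at 61.7 kb. In mTEChi its signal was 196 and 177 in Aire+/+ and 99.8 and 106 in Aire-/-, without overlap between the genotypes. The change was -0.85 (SE 0.23, unadjusted p = 0.000763, adjusted p = 0.18, limma), so it did not pass. In mTEClo the values were 123 and 176 in Aire+/+ and 122 and 121 in Aire-/-, with a change of -0.28 (SE 0.23). Without Brg1 the same region was at 182 and 226 in mTEChi, against 157 and 137 in Brg1+/+ (0.46, SE 0.23, adjusted p = 0.47).

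The smallest p of each other window in mTEChi without Aire fell on rises. At chr16:38404417-38404916 (44.4 kb, Cd80 window), signal was 11.9 and 31.0 in Aire+/+ and 55.7 and 54.8 in Aire-/- (1.47, SE 0.51, adjusted p = 0.31). At the 156 kb region of the Cd86 window it was 34.4 and 20.7 in Aire+/+ and 82.1 and 90.1 in Aire-/- (1.65, SE 0.70, adjusted p = 0.41). In both, the knockout libraries lay above the wild-type ones, but neither change passed the test.

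For mTEClo without Aire the smallest p in the windows gave changes of 1.34 (SE 0.68) at the 68.3 kb region of Cd80, -2.15 (SE 0.88) at chr16:36738846-36739345 (239 kb, Cd86) and 1.62 (SE 0.56) at the 63.0 kb region of Cd274-Pdcd1lg2, with adjusted p = 1.00 for each. The last of these was at 5.45 and 3.88 in Aire+/+ mTEClo and at 23.8 and 11.0 in Aire-/- mTEClo. In mTEChi the same region was lower in Aire-/- libraries, so mTEChi exceeded mTEClo by 3.75 (log2) with Aire and by 1.47 without it. The test of that difference gave -2.28 (SE 0.79, unadjusted p = 0.00706, adjusted p = 0.96, limma).

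Without Brg1, the smallest p of each window in mTEChi fell on chr16:38401629-38402128 (41.6 kb, Cd80), chr16:36720228-36720727 (220 kb, Cd86) and chr19:29570697-29571196 (191 kb, Cd274-Pdcd1lg2). At the first, signal was 52.0 and 22.4 in Brg1+/+ and 6.16 and 13.1 in Brg1-/- mTEChi, a change of -1.81 (SE 0.71, adjusted p = 0.35). All other mTEChi libraries were at 41.3 to 58.5, and mTEClo libraries at 1.82 to 10.1, so the Brg1-/- mTEChi values were close to those of mTEClo. The second changed by 2.33 (SE 0.85, adjusted p = 0.32) and the third by -1.70 (SE 0.62, adjusted p = 0.31).

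In mTEClo without Brg1 the corresponding regions were chr16:38506112-38506611 (146 kb, Cd80), the 175 kb region of Cd86, and chr19:29543369-29543868 (163 kb, Cd274-Pdcd1lg2). Their changes were 1.27 (SE 0.41, adjusted p = 0.65), 1.82 (SE 0.74, adjusted p = 0.74) and -0.98 (SE 0.37, adjusted p = 0.71). At the first, Brg1+/+ mTEClo libraries were at 34.3 and 16.5 and Brg1-/- ones at 55.1 and 62.9. The Brg1-/- values lay above the Brg1+/+ ones in mTEChi too, at 149 and 117 against 77.2 and 77.0 (0.77, SE 0.41, adjusted p = 0.51).

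The median change over a window was small beside the spread of its regions. In mTEChi without Brg1 it was -0.06 for Cd80, 0.01 for Cd86 and 0.24 for Cd274-Pdcd1lg2, against 0.22 for all tested regions. In mTEClo without Brg1 it was 0.21, 0.53 and 0.01, against 0.05. In mTEChi without Aire it was 0.13, 0.13 and -0.12, and in mTEClo without Aire 0.04, -0.11 and -0.15, both against a median near 0 for all tested regions.

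The last question was whether the gap between the sorts depended on the genotype. No member was called for Aire or for Brg1 in the interaction test by limma, with 9 and 8 members at an unadjusted p under 0.05 (5.20% and 4.62%, against 5.15% and 7.09% of all tested regions); 0.000444% and 0.0% of all tested regions were called. The median difference for Brg1 was -0.43 in the Cd80 window, -0.19 in the Cd86 window and 0.17 in the Cd274-Pdcd1lg2 window, against 0.17 over all tested regions. Nor was a member called between the wild types of both lines, where 0.156% of all tested regions were called in mTEChi and 0.0368% in mTEClo; 19 and 14 members were at an unadjusted p under 0.05 (11.0% and 8.09%, against 10.5% and 7.40%). Without the first Brg1+/+ mTEChi library 1 member was called in mTEChi, the Cd80 region at 8.35 kb, where that library was at 19.4 and the other at 2.20.

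Likeness between regions was measured as Pearson's r of log2(signal + 1) over the 16 libraries, as a description without a test; libraries of one sort share that sort, and all regions of a library share its scale. For the strongest Cd80 region the closest outside the windows were chr4:91043006-91043505 (r = 0.957) and chr2:163446078-163446577 (r = 0.955), and the closest in the same window was chr16:38458691-38459190 (r = 0.850). For the Cd86 region at 143 kb they were chr2:136721838-136722337 and chr2:152641903-152642402 (r = 0.966 for both), and for the Cd274-Pdcd1lg2 region at 170 kb chr11:79036906-79037405 (r = 0.960) and chr6:114895010-114895509 (r = 0.959). For the flat strongest regions of the Cd86 and Cd274-Pdcd1lg2 windows the highest r was 0.835 and 0.847. For the Cd80 region at 110 kb the closest were chr7:125618594-125619093 (r = 0.957) and chr9:57486378-57486877 (r = 0.939).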

How the data were processed

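One table of ATAC-seq signal in 250313 regions of 500 bp and 16 libraries was used. The deposited signal was normalized by the authors by a method not given in the sources used here, and Bowtie2, MACS2 and the mm9 build appear, with no version or role, per the submitters' processing notes. How regions were defined, Tn5 cut sites shifted or duplicates removed is not stated, and the depth per library is unknown. Libraries were grouped by genotype and sort from their labels. limma 3.58.1 (R 4.3.3, trend and robust options, 8 residual degrees of freedom) was fitted to log2(signal + 1) with 8 group means over all 16 libraries, and 13 contrasts were tested two-sided with Benjamini-Hochberg adjustment over 225281 regions. The other 25032 regions, with a mean signal under 7.48 (the 10th percentile), were left out. The fit was tested on simulated data. Fold changes are on the log2(signal + 1) scale, which understates those of weak regions. An exact permutation test of 2 libraries against 2 cannot go below p = 0.333 and was not used. Replicate numbers did not pair libraries. The members, lists and tests were chosen with earlier results of these data known. Regions were named by rule: per window the 3 strongest, up to 4 called higher and 4 called lower between the sorts by size, any called and otherwise the smallest p of each knockout contrast, and the 2 most alike outside the windows for the strongest and the most changed region. Lists of marker genes and of other ligand and receptor genes were not run, since no annotation of mm9 was used. Alternatives were other pseudocounts, filters and scalings, a replicate block, a fit per mouse line, and leaving out each library.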

Additional observations from a re-analysis of the deposited data

Results flagged for a closer look

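At 7 named regions all libraries of one sort moved with a knockout one way and all libraries of the other sort the opposite way. How many of all tested regions did so was not counted. The 7 therefore cannot be read as a trait of these windows. The difference was tested as an interaction by limma, and none passed after adjustment over all regions. For Aire the interaction (the change in mTEChi minus that in mTEClo, log2) was -2.28 (unadjusted p = 0.00706) at the 63.0 kb region of the Cd274-Pdcd1lg2 window and 2.29 (unadjusted p = 0.00382) at the 39.4 kb region of the Cd80 window, each with an adjusted p of 0.96. At the latter, chr16:38399412-38399911, signal in mTEChi was 27.4 and 24.1 in Aire+/+ and 68.0 and 59.0 in Aire-/-. In mTEClo it was 23.0 and 20.6 in Aire+/+ and 8.66 and 12.0 in Aire-/-. The sorts were thus close together in Aire+/+ mice and far apart in Aire-/- mice.

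The other Aire values were -1.55 at the 110 kb region and -0.95 at the 10.7 kb region of Cd80, and 0.77 at the 31.8 kb region and -1.40 at the 175 kb region of Cd86, with adjusted p-values of 0.96 throughout. For Brg1 it was -1.52 at the 80.3 kb region of Cd80 (unadjusted p = 0.0243, adjusted p = 0.65). There Brg1-/- mTEChi libraries were at 52.8 and 59.6 against 71.4 and 89.2 in Brg1+/+, and Brg1-/- mTEClo libraries at 25.8 and 40.3 against 16.6 and 14.3. Groups of 2 libraries were too small to look for a single library apart from its group. At the 61.7 kb region of Cd274-Pdcd1lg2 both sorts were lower in Aire-/- mice, and the sorts changed order. Both mTEChi libraries lay above both mTEClo libraries in Aire+/+ mice and below them in Aire-/- mice. The margins were narrow. In Aire+/+ mice the lower mTEChi library was almost level with the higher mTEClo library. The lower Aire+/+ mTEClo library was almost level with the Aire-/- mTEClo libraries. The interaction there was -0.57, with an adjusted p of 0.96 in limma.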

How the results depend on the processing

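The count of 74 calls between the sorts over all genotypes stayed within 1.5 times of itself in all alternatives run, from 56 with a filter at the 50th percentile to 79, and from 65 to 73 when 1 library was left out. The 56 came from 109 members tested under that filter, 51.4% called against 51.5% of all tested regions. The counts for single genotypes were less stable. In Aire+/+ mice, 18 calls became 11 after re-centring and 8 to 14 without 1 library. In Aire-/- mice, 28 calls became 9 to 14 without 1 library. In Brg1+/+ mice, 36 became 18 after quantile normalization, 22 after re-centring and 17 to 20 without 1 library. In Brg1-/- mice, 11 became 5 after quantile normalization and 2 to 7 without 1 library. The counts without a library come from a fit with fewer samples, in which the lone library is assumed to vary like the other groups. For each single genotype the share of all tested regions called fell in those fits too. The cause of the changes under the other settings was not tested. Knockout counts of 0 stayed at 0 except for Aire in mTEChi and the wild types of both lines in mTEChi, each 0 to 1 without 1 library.

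Of the 20 named regions called between the sorts for their size, 18 kept the call in every alternative run, as did the 7 added regions without overlap. The flat Cd80 region at 92.5 kb (-0.01) took values of -0.0748 to 0.050 when each library was left out in turn, and the flat Cd274-Pdcd1lg2 region at 56.1 kb values of -0.060 to 0.034. After re-centring, the sign turned at the Cd86 region at 194 kb (-0.052) and at the Cd274-Pdcd1lg2 regions at 61.7 kb (-0.33) and 216 kb (-0.18). The replicate numbers share only a number: deviations from group means correlated at -0.018 to 0.034 over 28 pairs of groups. With the replicate block in the fit, the sorts gave 75 calls in place of 74. By genotype the block gave 18, 27, 36 and 11 calls.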
